A study of Mus musculus with 42 samples.

Results

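Bone marrow-derived macrophages (BMDM) labelled IRF5-KO were compared with BMDM labelled WT after 24 h in culture without stimulus (Control 24 h). The comparison was chosen by its column names in the RNA-seq count table and held 6 of the 42 libraries, 3 of each genotype. The KO mice carried a loxP-flanked Irf5 (Irf5 flox/flox) together with LysM-Cre, a Cre recombinase placed in the Lyz2 gene and active in myeloid cells. The WT mice were their littermates, and neither group of cells used here had received LPS or palmitate. BMDM are macrophages grown from femur and tibia marrow in medium conditioned by L929 cells, the source of the growth factor M-CSF. The series also held both genotypes at 0 h and 2 h without treatment and after 2 h or 24 h of LPS or palmitate. No label or method used here says whether the 3 libraries of a group came from separate mice or cultures. The p-values of the main fit measure the spread between libraries within groups, estimated over all 42 libraries. That spread may be technical.

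IRF5 is a transcription factor that sits inactive in the cytoplasm of resting macrophages. Signals from Toll-like receptors lead to its phosphorylation and entry into the nucleus, where it drives genes of inflammatory cytokines and of type I interferon. It is known in macrophages as a factor of the pro-inflammatory state. The untreated 24 h cells therefore ask what differs between the genotypes at rest, before any added stimulus.

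The 3 WT libraries held 3420759, 5590757 and 6527382 counts and the 3 KO libraries 3849954, 5226027 and 6674765, within the range of 2848793 to 7743442 over all 42 libraries. Levels are given below as CPM, the counts of a gene relative to the TMM-scaled total of its library, and libraries are numbered in column order, which is only a name. Each pair of libraries of 1 genotype differed by more than counting noise, with chi-square values of 1.93 to 3.95 per degree of freedom over 10295 to 10794 genes, so no library was a copy of another. Of 37310 genes, 11624 had enough counts to be tested.

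Irf5 itself did not separate the libraries in the direction of their labels. The 3 libraries labelled WT held it at 243, 231 and 235 CPM, and the 3 labelled KO at 272, 279 and 281 CPM. The KO group lay above the WT group without overlap. The log2 fold change of KO against WT was 0.23 with a standard error (SE) of 0.06 and a 95% interval of 0.12 to 0.35, at an adjusted p of 0.105 by edgeR's quasi-likelihood test with Benjamini-Hochberg adjustment. DESeq2 gave it an adjusted p of 0.0260 and an edgeR fit of the 6 libraries alone 0.0193, both for a higher level in KO. A count over all exons of Irf5 would not see the loss of a floxed exon when the rest of the transcript is still made, so this total checks nothing about the deletion. Irf5 (chr6:29526625-29541871, plus strand, mm10) also overlaps Tnpo3 on the other strand. That the labels match the genotypes, or were exchanged, was not tested. Groups are therefore named by their labels throughout, and every direction rests on those labels.

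Both groups expressed the markers of macrophages. The 12 macrophage markers, among them Adgre1 (F4/80), Cd68, Csf1r, Mertk and Spi1, summed to between 7733 and 7758 CPM in the WT libraries and between 7525 and 7700 CPM in the KO libraries. None of the 12 was called by edgeR, none had an unadjusted p under 0.05 and DESeq2 called none. Adgre1 had a log2 fold change of -0.05 with a 95% interval of -0.16 to 0.06. Cd68 had one of -0.07 and Cd14, the LPS co-receptor, one of 0.19 with a 95% interval of -0.08 to 0.47.

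Across the transcriptome the genotypes lay close together. A gene is referred to as called where its adjusted p over all 11624 genes was under 0.05. In the KO libraries 14 genes were called, 0.12% of those tested. Of these, 10 were higher (0.086%) and 4 were lower (0.0344%). At an unadjusted p under 0.05 there were 587 genes (5.05%), 326 of them higher (2.8%) and 261 lower (2.25%). The median log2 fold change over all genes was 0.00 and 91.1% of them had a log2 fold change of less than 0.5 in size. The 10 higher genes had log2 fold changes of 0.37 to 2.29 and the 4 lower genes of -0.92 to -0.37. Mean levels of the called genes were 8.66 to 8526 CPM, against a median of 21.1 CPM for all tested genes. For 1352 genes (11.6%) every KO library lay on 1 side of every WT library, and this included all 14 called genes.

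**Figure D1:**
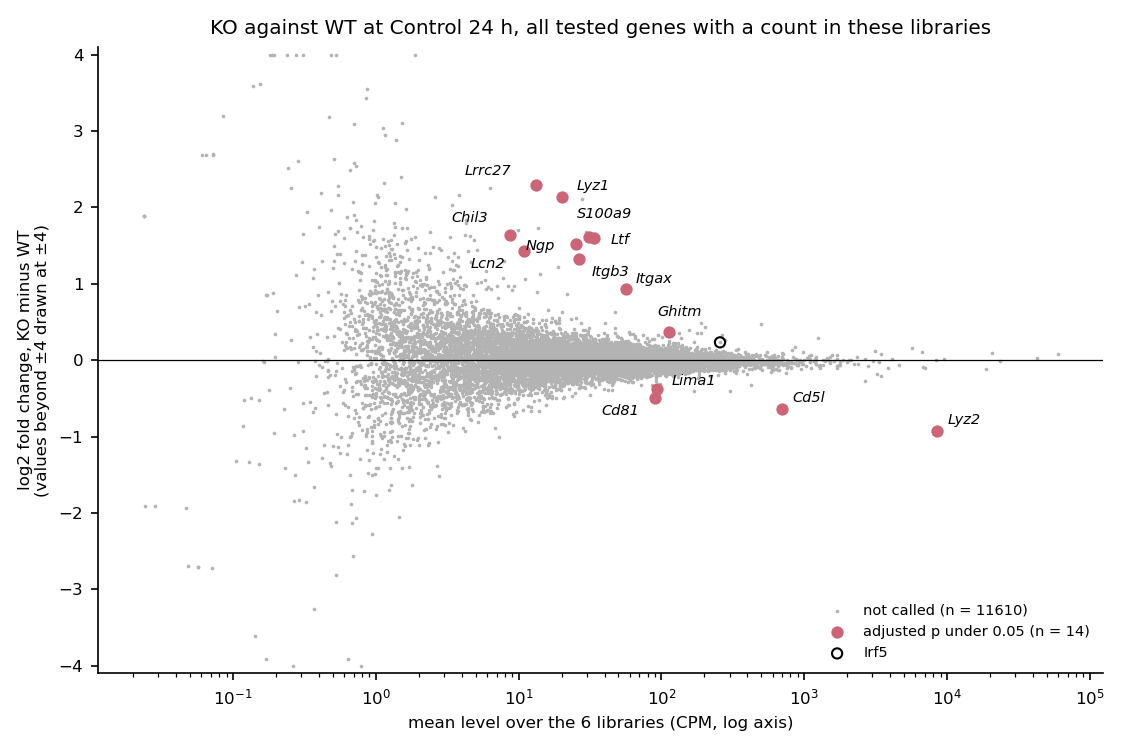
Log2 fold change of KO against WT at Control 24 h on the y axis for each tested gene with a count in these libraries, against its mean level in CPM on a logarithmic x axis, with the 14 called genes marked and named. Most points lie around 0, with Lyz1 and Lrrc27 highest among the called genes and Lyz2 farthest to the right and below 0.

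The clearest pair of changes concerned the lysozymes, enzymes that cut bacterial cell walls. Mice have 2 neighbouring copies, Lyz2 being the macrophage form (also called LysM) and Lyz1 the form best known from the Paneth cells of the gut. Lyz2 stood at 10880.3, 11088.6 and 11527.5 CPM in the WT libraries and at 6159.7, 5610.6 and 5890.0 CPM in the KO libraries. The groups lay far apart, with every KO library below every WT library. KO against WT differed by -0.92 on the log2 scale (SE 0.09, adjusted p = 1.93e-09, edgeR). Lyz2 is the gene that holds the Cre of LysM-Cre, so its level and the KO label go with the same allele and cannot be told apart.

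Lyz1 moved the other way. It was found at 8.14, 6.69 and 7.43 CPM in the WT libraries and at 35.8, 29.2 and 32.7 CPM in the KO libraries. This was 7.42 ± 0.728 against 32.5 ± 3.30 CPM (SD, n = 3 each), with no overlap. The difference of KO from WT was 2.14 on the log2 scale (SE 0.18, adjusted p = 2.01e-11, edgeR). Both lysozymes were called in each of the 6 fits that left out 1 library, with log2 fold changes of 2.07 to 2.20 for Lyz1 and of -0.96 to -0.90 for Lyz2.

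The counts of the 2 lysozymes were also set side by side, because close copies can exchange reads. The longest protein-coding transcripts of Lyz1 (1263 bases) and Lyz2 (1316 bases) were identical at 1211 of 1262 aligned positions (96.0%). Of the 1164 stretches of 100 bases in Lyz1, 24 (2.06%) occurred without a change in Lyz2. For stretches of 75 bases it was 74 of 1189 (6.22%), and for 50 bases 195 of 1214 (16.1%). Lyz1 made up 0.0748%, 0.0603% and 0.0644% of the summed lysozyme counts in the WT libraries and 0.577%, 0.517% and 0.552% in the KO libraries. The share was higher in KO and the Lyz2 counts were lower, and whether the genes exchanged reads was not tested. The sum of both genes was 11172.9 ± 330.2 CPM in WT and 5919 ± 278 CPM in KO (SD, n = 3 each), a log2 difference of -0.92 at an exact two-sided permutation p of 0.1, the smallest that 3 libraries against 3 can give. Nearly all of the sum was Lyz2, so its difference repeats that of Lyz2 and cannot bear on shared reads. Its p comes from another test than the edgeR p of Lyz2. How the authors' counting shared out reads that fit both genes is not given in the sources used here.

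The sequences upstream of the 2 lysozymes are shown to let the copies be compared. They come from RefSeq's promoter table (GRCm38.p6, the same assembly as mm10), cut to the bases before the start of the gene, 5′ to 3′ on the strand of the gene. Capitals mark matches to TTNNGNAA on either strand, a C/EBP-like motif of myeloid genes.
Lyz1 (chr10:117292869-117293118, minus strand): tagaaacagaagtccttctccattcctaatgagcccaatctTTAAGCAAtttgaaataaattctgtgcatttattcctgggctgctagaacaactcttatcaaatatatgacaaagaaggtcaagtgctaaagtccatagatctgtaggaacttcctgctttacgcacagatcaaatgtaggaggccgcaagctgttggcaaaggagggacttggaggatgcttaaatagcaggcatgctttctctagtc
Lyz2 (chr10:117282322-117282522, minus strand): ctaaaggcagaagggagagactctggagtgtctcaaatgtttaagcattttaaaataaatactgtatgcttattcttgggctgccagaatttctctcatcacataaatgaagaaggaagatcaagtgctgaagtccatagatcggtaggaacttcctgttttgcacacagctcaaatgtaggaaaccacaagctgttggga
The 250 bases before each RefSeq start were identical at 200 of 248 aligned positions (80.6%). The Lyz1 stretch holds 1 match. The single Lyz2 match of the 250-base window reaches into the 49 bases inside the gene that were left out here.

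Lrrc27, a leucine-rich repeat protein gene of little known function, came next after Lyz1 in order of p. Its level was 3.65, 3.77 and 5.68 CPM in the WT libraries and 19.1, 21.7 and 24.8 CPM in the KO libraries. The lowest KO library lay above the highest WT library by a wide margin. KO against WT differed by 2.29 on the log2 scale (SE 0.22, adjusted p = 3.76e-10, edgeR), and it stayed called in each of the 6 fits without 1 library, at 2.16 to 2.55. Lrrc27 (chr7:139212988-139242979, plus strand, mm10) overlaps Stk32c on the other strand, and the sources used here do not say whether reads were counted by strand. Of 35 genes in the table within 1 Mb of Lrrc27, 13 were tested. None was called by edgeR or DESeq2 and 1, Pwwp2b, had an unadjusted p under 0.05, at 35.1, 41.996 and 44.4 CPM in WT and 51.4, 61.8 and 51.0 CPM in KO (log2 fold change 0.42, adjusted p = 0.352).

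Genes for the granule proteins of neutrophils and their precursors gave the most calls of any list. These proteins are made as granulocytes mature in the marrow and serve to kill or starve bacteria. Of 18 genes listed, 10 were tested, and 5 of those were called, all of them higher in KO. Over all genes the share called higher was 0.086%. The list was chosen with earlier results of these data known, so these counts only describe it. The median log2 fold change of the 10 was 1.18, against 0.00 over all genes, and all 10 were above 0.

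Ltf (chr9:111019271-111042767, plus strand) encodes lactoferrin, an iron-binding protein of the secondary granules. It was found at 18.8, 16.8 and 14.9 CPM in the WT libraries and at 50.4, 72.2 and 30.02 CPM in the KO libraries (log2 fold change 1.60, SE 0.27, adjusted p = 0.00133). The KO libraries differed among themselves by more than the WT libraries did, and the lowest of them still lay above WT. S100a9 (chr3:90692632-90695721, minus strand), a calcium-binding subunit of calprotectin, was at 12.6, 18.2 and 14.6 CPM in WT and 43.7, 59.1 and 38.2 CPM in KO (1.61, SE 0.29, adjusted p = 0.00224). Its partner S100a8 was at 10.1, 8.91 and 9.18 CPM in WT and 15.4, 20.6 and 15.999 CPM in KO, a log2 fold change of 0.89 with an unadjusted p of 0.00185 that was not called (adjusted p = 0.415).

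Ngp (chr9:110419747-110423012, plus strand), the neutrophilic granule protein, was at 16.001, 14.1 and 9.47 CPM in the WT libraries and 36.3, 43.7 and 31.01 CPM in the KO libraries (1.52, SE 0.30, adjusted p = 0.0107). Chil3 (chr3:106147554-106167564, minus strand) encodes Ym1, a chitinase-like protein of neutrophil precursors that macrophages also make in alternative activation. It was near 4 CPM in WT, with 4.21, 4.29 and 4.08 CPM, and reached 12.2, 16.8 and 10.5 CPM in KO (1.64, SE 0.34, adjusted p = 0.0171). Lcn2 (chr2:32384633-32388252, minus strand), a protein that withholds bacterial iron carriers, stood at 4.49, 4.46 and 7.87 CPM in WT and 18.4, 20.8 and 9.91 CPM in KO (1.43, SE 0.32, adjusted p = 0.0381). The groups were apart for all 3, and for Lcn2 the lowest KO library came close to the highest WT library.

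The highest values of all 6 granule genes named above came from KO library 2. The summed level of the 18 listed genes was 177, 184 and 178 CPM in the WT libraries and 313, 362 and 276 CPM in the KO libraries. Without KO library 2, none of the 11 genes then tested was called and their median log2 fold change was 1.23. Ltf then had a log2 fold change of 1.23 (adjusted p = 0.127), S100a9 of 1.40 (0.0759), Ngp of 1.37 (0.166), Chil3 of 1.41 (0.354) and Lcn2 of 1.17 (0.520). Leaving out another library kept between 2 and 5 of the list called, at medians of 0.93 to 1.30. Ngp was lost without WT library 2 (adjusted p = 0.0583) or 3 (0.263), Chil3 without WT library 1 (0.134), 2 (0.132) or 3 (0.168), and Lcn2 when KO library 1 (0.186), WT library 1 (0.236) or WT library 2 (0.515) was omitted. DESeq2 called 4 of the 10 and gave Ngp an adjusted p of 0.0741.

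Not all granule genes were called. Mmp8, the neutrophil collagenase, was at 85.9, 90.3 and 90.6 CPM in WT and 105, 102 and 97.3 CPM in KO (log2 fold change 0.18). Its groups did not overlap, and its change was small. Mpo, the myeloperoxidase of primary granules, was at 2.53, 2.23 and 2.33 CPM in WT and 3.72, 1.46 and 7.93 CPM in KO (0.94), with 1 KO library below all WT libraries. Cd177 (0.28, 95% interval -0.28 to 0.83) and Padi4 (0.13, 95% interval -0.24 to 0.49) were not called. The primary granule gene Elane had no count in the WT libraries, and Ly6g, a surface marker of mature neutrophils, had none in 5 of the 6 libraries. In bulk RNA, more cells of a type and more RNA per cell cannot be told apart.

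**Figure D2:**
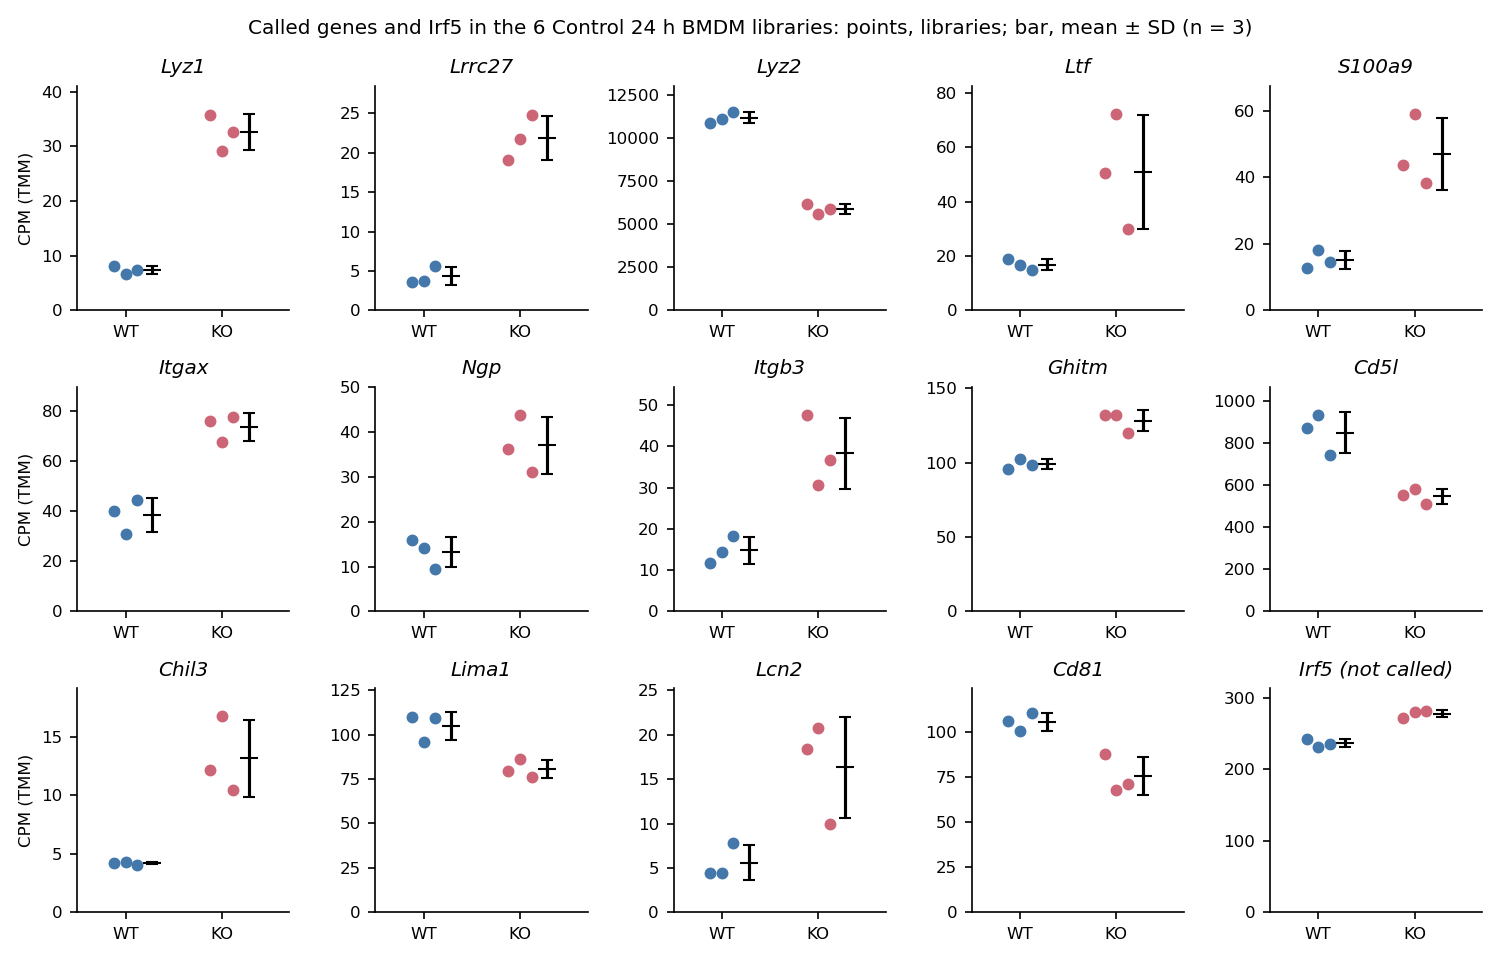
Level of each of the 14 called genes and of Irf5 in CPM (y axis, from 0) in the 3 WT and the 3 KO Control 24 h libraries (x axis), with points for libraries and a bar for the mean ± SD (n = 3). The groups do not overlap in any panel, and for Ltf, S100a9, Ngp, Chil3 and Lcn2 the highest point is KO library 2.

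The promoters of 4 called granule genes follow, since these genes moved together and TTNNGNAA is the motif of the C/EBP factors that act in granulocyte maturation. Source, build and capitals are as for the lysozymes.
Ltf (chr9:111019042-111019270, plus strand): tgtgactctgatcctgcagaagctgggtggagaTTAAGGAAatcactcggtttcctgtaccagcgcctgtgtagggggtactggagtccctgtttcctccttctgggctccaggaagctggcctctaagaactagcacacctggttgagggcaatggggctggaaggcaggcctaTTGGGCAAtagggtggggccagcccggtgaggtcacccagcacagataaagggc
Ngp (chr9:110419558-110419746, plus strand): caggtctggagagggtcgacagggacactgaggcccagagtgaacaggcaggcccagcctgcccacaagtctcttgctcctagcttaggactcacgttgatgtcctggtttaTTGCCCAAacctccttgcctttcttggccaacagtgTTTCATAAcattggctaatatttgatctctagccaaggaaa
S100a9 (chr3:90695722-90695971, minus strand): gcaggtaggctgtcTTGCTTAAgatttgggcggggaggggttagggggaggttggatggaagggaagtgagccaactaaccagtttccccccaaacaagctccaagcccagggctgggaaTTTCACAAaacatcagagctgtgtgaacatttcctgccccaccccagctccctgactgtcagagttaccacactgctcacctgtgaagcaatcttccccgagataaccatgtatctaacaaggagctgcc
Chil3 (chr3:106167565-106167814, minus strand): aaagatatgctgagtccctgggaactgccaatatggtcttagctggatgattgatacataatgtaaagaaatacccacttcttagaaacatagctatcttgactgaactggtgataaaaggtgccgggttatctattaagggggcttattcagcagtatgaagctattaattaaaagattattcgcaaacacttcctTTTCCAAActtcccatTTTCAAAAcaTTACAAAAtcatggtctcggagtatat
Ltf, Ngp and S100a9 each hold 2 matches in the stretch shown and Chil3 holds 3, close to its start. Among the 27025 promoters of the table, 36.9% held at least 1 match in the 250 bases before the start, and 12 of the 13 called genes found there did, Cd5l being the exception. The interferon-response-element-like motif GAAANNGAA was in 7.16% of the promoters and in 2 of the 13 (Chil3 and Lyz1), and the PU.1-like motif GAGGAA was in 23.1% and in 3 of the 13 (Lcn2, Cd5l and Ltf). Itgb3 was not in the table. Both strands were searched, and each motif was counted whether or not it overlapped another. The matches describe these letters only and are no evidence of binding.

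Integrins, the paired receptors by which leukocytes attach to each other and to matrix, gave another 2 called genes of the 12 listed, both higher (0.086% over all genes), with a median of 0.08 over the list. Itgax (chr7:128129547-128150657, plus strand) encodes CD11c, which is used as a marker of dendritic cells and of some tissue macrophages. Its level was 40.1, 31.03 and 44.4 CPM in the WT libraries and 76.0, 67.4 and 77.4 CPM in the KO libraries. The gap between the groups was wider than the range within either. The difference of KO from WT was 0.93 on the log2 scale (SE 0.17, adjusted p = 0.00224, edgeR), and 0.78 (adjusted p = 0.116) without WT library 2. Itgb2, the partner of Itgax on the cell surface, had a log2 fold change of 0.11 and Itgal, the alpha chain of LFA-1, one of 0.11.

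Itgax was the only one of 5 tested dendritic cell markers to be called, out of 8 listed, while the median of the 5 was 0.93 and all 5 were above 0. Flt3, the receptor for a growth factor of dendritic cells and early progenitors, was at 0.842, 1.03 and 0.874 CPM in the WT libraries and 3.23, 2.55 and 2.83 CPM in the KO libraries. Those levels rest on 3 to 6 counts a library in WT and 13 to 20 in KO, and the log2 fold change of 1.61 was not called (unadjusted p = 0.0119). Siglech, a plasmacytoid marker, had a log2 fold change of 1.14 with a 95% interval of -0.19 to 2.47. Ccr7, the receptor that guides dendritic cells to lymph nodes, had one of 0.86 with an interval of -0.18 to 1.90. Xcr1, a marker of cross-presenting dendritic cells, had no count in any of the 6 libraries. Low genes such as Flt3 and Siglech can pass the count filter through the KO libraries alone. The median and signs of the 5 tested markers therefore only describe the list.

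Itgb3 (chr11:104608000-104670476, plus strand) encodes the beta 3 chain of the platelet fibrinogen receptor and of the vitronectin receptor of macrophages and osteoclasts. It was at 11.8, 14.4 and 18.2 CPM in the WT libraries and 47.7, 30.6 and 36.8 CPM in the KO libraries. No KO library came near the WT range. KO against WT differed by 1.32 on the log2 scale (SE 0.27, adjusted p = 0.0127, edgeR). Omitting KO library 1 (1.15, adjusted p = 0.135), WT library 1 (1.21, 0.178) or WT library 2 (1.28, 0.130) ended the call.

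Its platelet partner Itga2b (CD41) was not called, at 10.7, 9.60 and 13.1 CPM in WT and 27.8, 29.9 and 21.7 CPM in KO (log2 fold change 1.22, SE 0.33, adjusted p = 0.213). Itga2b belonged to a list of 5 megakaryocyte markers of which 3 were tested. None of the 3 was called by edgeR or DESeq2, and all 3 had an unadjusted p under 0.05 in the higher direction (2.8% over all genes), at a median of 1.22. The edgeR fit of the 6 libraries alone called 2 of the 3 higher and the fit without the filter 2 of all 5. Pf4, platelet factor 4, was at 37.9, 33.8 and 40.4 CPM in the WT libraries and 62.6, 53.6 and 57.5 CPM in the KO libraries (0.63, SE 0.16, adjusted p = 0.140). Ppbp, another platelet chemokine, was at 0.281, 1.54 and 3.64 CPM in WT and 3.23, 6.56 and 5.10 CPM in KO (1.30, unadjusted p = 0.0122), and its groups overlapped.

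A wider list of 24 platelet and megakaryocyte genes was drawn up after these values had been seen and is only described. Of its 20 tested members 1 was called, Itgb3, and 11 had an unadjusted p under 0.05, all higher, where 2.8% of all genes did. The median was 1.20. With the 6 libraries alone 6 of 14 tested members were called higher, and without the filter 6 of 24. Gata2, a transcription factor of progenitors, megakaryocytes and mast cells, was at 2.25, 1.37 and 2.19 CPM in WT and 6.46, 4.19 and 4.81 CPM in KO (1.40, adjusted p = 0.210). Vwf, the platelet adhesion protein, was at 17.1, 10.97 and 18.5 CPM in WT and 27.6, 27.2 and 29.9 CPM in KO (0.87, adjusted p = 0.305). Mmrn1, a protein of platelet granules, was at 1.68, 0.686 and 3.21 CPM in WT and 5.71, 7.47 and 6.94 CPM in KO (1.80, adjusted p = 0.307). For all 3 of these genes the groups did not overlap, which held for 11 of the 20 tested members and for 11.6% of all genes. Of the 20, 3 had a log2 fold change below 0, the lowest being -0.30.

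Of the 4 genes that fell, Cd5l was the next most abundant after Lyz2. It encodes AIM, a secreted scavenger receptor family protein that macrophages make as a survival factor. Cd5l (chr3:87357881-87371073, plus strand) was at 872, 932 and 741 CPM in the WT libraries and 551, 579 and 509 CPM in the KO libraries. The groups did not overlap. The difference of KO from WT was -0.64 on the log2 scale (SE 0.13, adjusted p = 0.0127, edgeR). Without KO library 1 (adjusted p = 0.0633), KO library 3 (0.173), WT library 1 (0.117) or WT library 2 (0.186) it was not called, at log2 fold changes of -0.65 to -0.57.

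Cd5l was the only one of 12 tested scavenger and resident macrophage receptor genes to be called, and the median of the 12 was -0.11. Cd163, the receptor for haemoglobin complexes, had a log2 fold change of -1.11 on 3 to 18 counts a library and overlapping groups (unadjusted p = 0.0403). Siglec1, the sialic acid receptor CD169, had one of -0.19 with a 95% interval of -0.43 to 0.04. Marco, a receptor for bacteria and particles, had one of -0.15. The 14 genes listed summed to 5451 to 5721 CPM in WT and to 4973 to 5129 CPM in KO. Cd5l is part of these sums, with means of 848 CPM in WT and 546 CPM in KO.

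Cd81 (chr7:143052739-143067934, plus strand) encodes a tetraspanin, one of the membrane proteins that organise other receptors into patches. It stood at 106, 101 and 111 CPM in the WT libraries and 87.7, 67.8 and 71.2 CPM in the KO libraries (log2 fold change -0.50, SE 0.11, adjusted p = 0.0489). This call had the largest adjusted p of the 14, and it held in 1 of the 6 fits without a library, that without KO library 1 (-0.61, adjusted p = 0.0172). In the other 5, which left out KO library 2, KO library 3 or 1 WT library, the adjusted p was 0.112 to 0.520. The other 10 tetraspanins were not called, though 1 was higher in the fit of the 6 libraries alone and in that without the filter. Cd9, its close relative on macrophages, had a log2 fold change of 0.34 with an unadjusted p of 0.0226.

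Lima1 (chr15:99778470-99875456, minus strand) encodes EPLIN, which crosslinks actin filaments. Its level was 109.8, 95.6 and 109 CPM in the WT libraries and 79.7, 86.4 and 76.3 CPM in the KO libraries, without overlap (-0.37, SE 0.08, adjusted p = 0.0376). The call was lost without KO library 1 (adjusted p = 0.135), KO library 3 (0.398), WT library 1 (0.236) or WT library 3 (0.292). The log2 fold changes of those fits lay between -0.37 and -0.34.

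Ghitm (chr14:37120092-37135272, minus strand), one of 6 genes the study singled out, was called with the smallest change. It encodes a protein of the inner mitochondrial membrane that keeps the folds of that membrane in shape. Its level was 96.0, 103 and 98.6 CPM in the WT libraries and 132, 132 and 120.1 CPM in the KO libraries. That is 99.0 ± 3.27 against 128 ± 7.03 CPM (SD, n = 3 each), with no overlap. KO against WT differed by 0.37 on the log2 scale (SE 0.07, adjusted p = 0.0127, edgeR). It held without KO library 3 (0.41, adjusted p = 0.0158). With KO library 1 or 2, or any WT library, left out instead, the log2 fold change was 0.33 to 0.39 and the adjusted p 0.0583 to 0.265.

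Of the other 5 genes the study singled out, Lrrc27 is described above and 4 were not called. Atf5, a factor of the mitochondrial stress response, had a log2 fold change of 0.23 (95% interval -0.07 to 0.52). Syce2, a gene of the meiotic synaptonemal complex, had one of 0.11 (95% interval -0.49 to 0.70). Abcg1, an exporter of cholesterol, had one of -0.15 (unadjusted p = 0.0504). Fnip2, a partner of folliculin in nutrient sensing, had one of -0.04 (95% interval -0.16 to 0.08). The study chose these genes on its own samples, so their calls are not independent evidence.

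No other mitochondrial gene of the lists was called. Ghitm was the only one of 18 tested genes for the structure of the inner membrane to be called, and the median of the 18 was -0.03. Oma1, a protease of that membrane, had a log2 fold change of -0.39 with overlapping groups (unadjusted p = 0.0261). Among 79 tested nuclear-encoded subunits of oxidative phosphorylation, edgeR and DESeq2 called none, 2 had an unadjusted p under 0.05 and the median was -0.01. Those 2 were subunits of ATP synthase and both were lower in KO. Atp5g1, for a proton channel subunit, was at 22.2, 26.4 and 24.0 CPM in WT and 18.1, 16.2 and 17.8 CPM in KO (-0.49, adjusted p = 0.415), and Atp5c1, for the central stalk, had a log2 fold change of -0.17 (unadjusted p = 0.0286).

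Glycolysis, the pathway that turns glucose into pyruvate and lactate, gave no call by edgeR or DESeq2 among 18 genes and none at an unadjusted p under 0.05. The median of the 18 was -0.05. Gapdh had a log2 fold change of -0.13 with a 95% interval of -0.29 to 0.02 and Aldoa one of -0.10 with an interval of -0.24 to 0.05. The 6 genes of the folliculin, FNIP and TFEB family, which tie lysosome function to nutrients, had a median of -0.03 with none called by edgeR or DESeq2 and none at an unadjusted p under 0.05. Nnt, the mitochondrial transhydrogenase that differs between C57BL/6 substrains, was at 63.7, 58.6 and 53.6 CPM in WT and 69.3, 72.2 and 74.8 CPM in KO (0.31, unadjusted p = 0.00492, adjusted p = 0.649). Both groups thus had counts of it, and a total over the gene does not show which form of Nnt they carried.

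The genes that IRF5 is best known to drive gave no call at rest. Of 19 genes for inflammatory cytokines, chemokines and effectors, none was called by edgeR or DESeq2 and 2 had an unadjusted p under 0.05, with a median of 0.12 over the list. Low levels limit this result. In these 6 libraries 3 of the 19 had no count, and 10 passed the filter when the 6 were fitted alone. The list summed to 128 to 148 CPM in WT here and to 9165 to 9847 CPM in WT after 2 h of LPS. For members with few or no counts at rest, a call was hardly possible. Il12b, the p40 subunit of IL-12, rested on 2, 8 and 6 counts in WT and 0, 2 and 0 counts in KO. Cxcl1, a neutrophil chemokine, had no count in WT and 1, 4 and 1 counts in KO, at least 1.96-fold higher against a floor of 3 counts over the WT group. Its relative Cxcl2 had a log2 fold change of 0.96 with a 95% interval of -0.05 to 1.97.

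Interferon genes were likewise without calls by edgeR. None of 23 interferon-stimulated genes was called by edgeR or DESeq2, and 2 of them, Stat2 (log2 fold change 0.30) and Zbp1 (0.62), had an unadjusted p under 0.05, both with overlapping groups. The median was 0.08. Of 8 tested interferon regulatory factors edgeR called none and DESeq2 called 1, Irf5 itself, which was also the only one at an unadjusted p under 0.05 by edgeR. Irf1 had a log2 fold change of 0.16 with a 95% interval of -0.07 to 0.40, and Irf8, a factor that sets the monocyte line, one of -0.09 with an interval of -0.22 to 0.05.

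Antigen presentation by MHC class II gave higher sums without a call. The 8 genes summed to 330, 287 and 323 CPM in the WT libraries and to 365, 393 and 420 CPM in the KO libraries. Cd74, the invariant chain that guides class II to its compartment, was at 183, 158 and 173 CPM in WT and 215, 234 and 243 CPM in KO (log2 fold change 0.44, unadjusted p = 0.00741, adjusted p = 0.788). H2-Aa, a class II alpha chain, had one of 0.43 with overlapping groups (unadjusted p = 0.0354). These 2 were the only members of the 8 under 0.05, DESeq2 called none, and the median was 0.30. The edgeR fit of the 6 libraries alone and that without the filter each called 1 member higher.

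Further macrophage lists held no call. The 9 complement genes had a median of -0.04 and no call, with no unadjusted p under 0.05 and no call by DESeq2. C1qb and C1qc, subunits of the first complement component, each had a log2 fold change of -0.13. The 10 genes of LXR action and cholesterol efflux had a median of -0.06, no call by either tool and 1 gene at an unadjusted p under 0.05, Lpcat3 (-0.38), an enzyme that remodels phospholipids. Abca1, the main cholesterol exporter, had a log2 fold change of -0.09 with a 95% interval of -0.21 to 0.03. Of 5 Fc gamma receptors, which bind IgG, none was called by either tool and 1, Fcgr4 (-0.29), had an unadjusted p under 0.05. The 17 cell cycle genes had a median of 0.06, no call by either tool and 1 gene at an unadjusted p under 0.05, Tyms (0.60), while Mki67 had a log2 fold change of 0.16 with a 95% interval of -0.05 to 0.37.

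**Figure D3:**
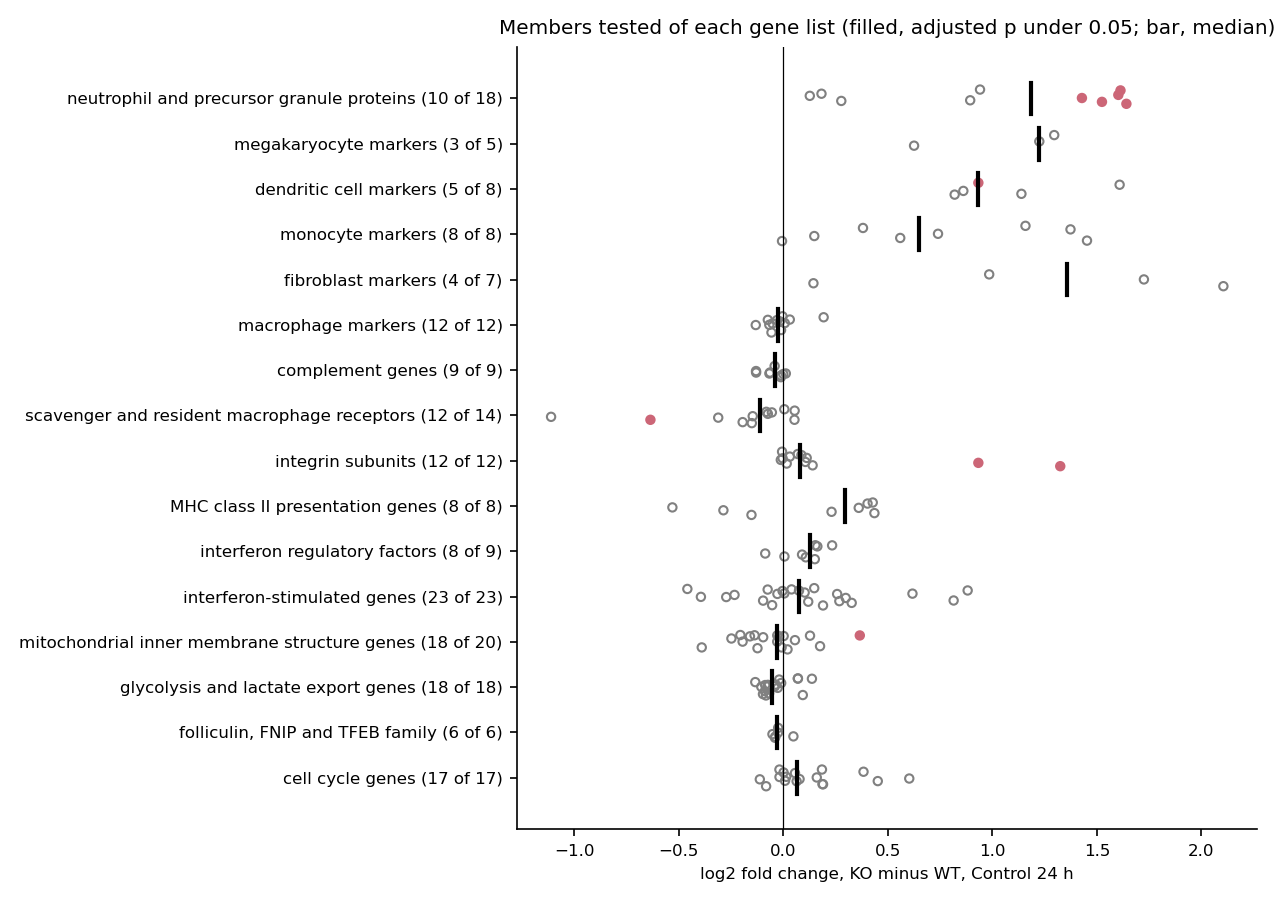
Log2 fold change of KO against WT at Control 24 h (x axis) for the tested members of each gene list (y axis, with the number tested of the number listed), filled where called, with a bar for the median. The granule and megakaryocyte lists have medians of 1.18 and 1.22, and the macrophage, complement and mitochondrial lists lie around 0.

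The 10 genes next in order of p, none of them called, include Irf5, Pf4, Gata2 and Itga2b. Tchp, for a keratin-binding protein of the centrosome, came first, at 3.65, 6.34 and 6.85 CPM in WT and 9.44, 12.0 and 12.5 CPM in KO (log2 fold change 0.97, adjusted p = 0.0515). DESeq2 called it (adjusted p = 0.0423). Mmp12, the macrophage elastase, was at 382, 388 and 474 CPM in WT and 553, 592 and 583 CPM in KO (0.47, SE 0.11, adjusted p = 0.1003). For both genes the groups did not overlap.

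Tnn, for the matrix protein tenascin-W, had no count in the WT libraries and 23, 22 and 11 counts in the KO libraries. Against a floor of 3 counts over the WT group this was at least 18.3-fold higher (adjusted p = 0.118). Gucy1b1, a subunit of the nitric oxide receptor, had 0, 0 and 4 counts in WT and 5, 9 and 23 counts in KO. Treml2, a receptor of neutrophils and other leukocytes, was at 3.09, 1.54 and 2.62 CPM in WT and 7.20, 6.74 and 5.38 CPM in KO (1.43, adjusted p = 0.213). Akr1b8, an aldose reductase, was the only one of the 10 that was lower in KO, at 95.7, 106 and 110.4 CPM in WT and 70.0, 68.3 and 81.8 CPM in KO (-0.50, adjusted p = 0.141).

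Markers of other cells of the marrow were measured beside these changes. The 8 monocyte markers summed to 141 to 156 CPM in WT and to 174 to 184 CPM in KO, with a median log2 fold change of 0.65, none called by edgeR or DESeq2 and 2 at an unadjusted p under 0.05, among them Hp (haptoglobin) at 0.56. The 7 B cell markers summed to 25.8 to 41.5 CPM in WT and to 38.9 to 57.6 CPM in KO, with 3 tested, none called by either tool and 2 at an unadjusted p under 0.05, Igkc (1.29) and Ighm (0.56). The 5 mast cell and basophil markers summed to 2.77 to 6.86 CPM in WT and to 8.19 to 12.9 CPM in KO. The 3 tested had a median of 0.97, with no call by either tool and no unadjusted p under 0.05. Among them Cpa3 had a log2 fold change of 0.97 with a 95% interval of -0.12 to 2.05. Genes this low can pass the count filter through the KO libraries alone, so that median only describes the list. The 9 T and NK cell markers summed to 19.7 to 30.2 CPM in WT and 24.8 to 34.6 CPM in KO, and the 7 erythroid markers, haemoglobins included, to at most 0.566 CPM in any library.

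Fibroblast markers varied widely between libraries of 1 group. The 7 listed summed to 8.14, 14.2 and 66.1 CPM in the WT libraries and to 157, 59.1 and 50.3 CPM in the KO libraries. Col1a1, the main collagen chain, was at 2.81, 0.343 and 24.3 CPM in WT and 84.9, 28.2 and 24.9 CPM in KO. Col1a2 was at 0, 0 and 16.2 CPM in WT and 39.5, 15.5 and 10.5 CPM in KO. Of the 4 tested fibroblast markers none was called by either tool and none had an unadjusted p under 0.05 (1 was called higher with the 6 libraries alone and 2 of 7 without the filter), while Dcn and Lum had no count in any of the 6 libraries.

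The granule, monocyte, dendritic, megakaryocyte, and mast cell and basophil sums were thus higher in every KO library than in every WT library. The granule sum includes the 5 called granule genes and the dendritic sum includes Itgax, so these 2 sums partly repeat those calls. The part of other cells in the called changes of Itgax, Itgb3 and the granule genes was not tested. The dendritic cell markers summed to 37.4 to 50.1 CPM in WT and to 78.6 to 88.6 CPM in KO, most of it Itgax. The megakaryocyte markers summed to 45.3 to 57.8 CPM in WT and to 85.5 to 94.6 CPM in KO. The macrophage sum was lower in every KO library than in every WT library.

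**Figure D4:**
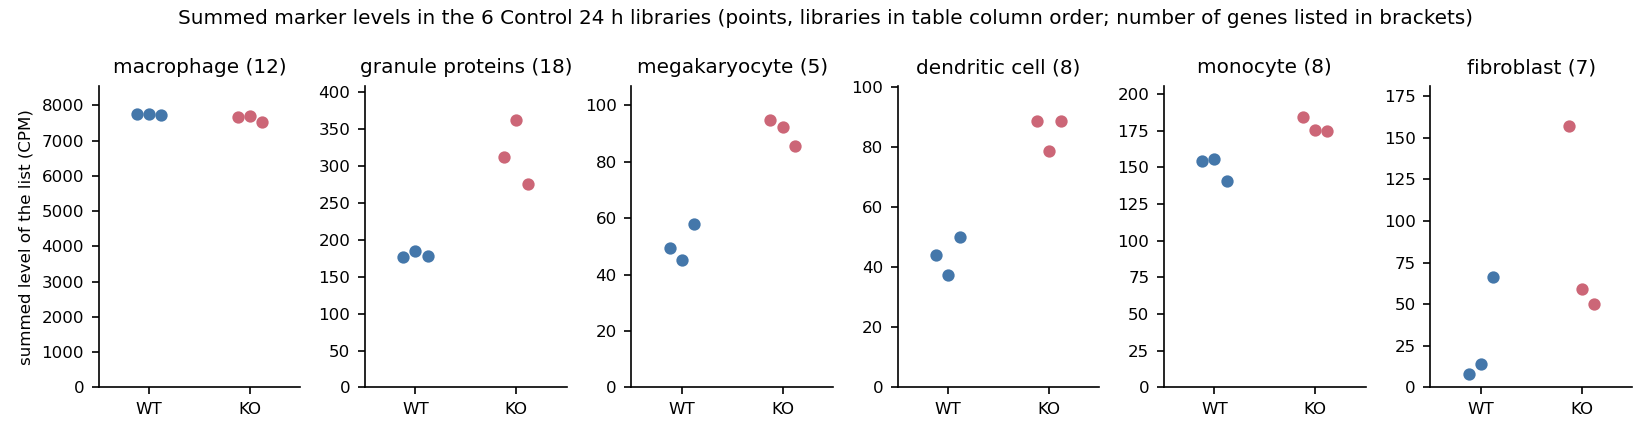
Summed level in CPM (y axis, from 0) of each marker list in the 3 WT and 3 KO Control 24 h libraries (points), with the number of genes listed in brackets. The granule sums are 177 to 184 CPM in WT and 276 to 362 CPM in KO, and the fibroblast sums overlap.

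The 14 genes were then looked up in the other 6 conditions, whose libraries are separate from those at Control 24 h. Separate libraries may still share mice or cultures, which no label gives. Calls in several conditions are therefore not independent repeats of the genotype difference. Called genes of KO against WT numbered 1448 at Control 0 h (12.5% of those tested), 57 at Control 2 h (0.49%), 17 after 2 h of palmitate (0.146%), 8 after 24 h of palmitate (0.0688%), 54 after 2 h of LPS (0.465%) and 17 after 24 h of LPS (0.146%). Of the 14 genes, 9 were called in the same direction at Control 0 h, 11 at Control 2 h and 11 after 2 h of palmitate. After 24 h of palmitate there were 5, after 2 h of LPS 10 and after 24 h of LPS 4. All 14 kept the sign of the change in 5 of the conditions, and 12 did so after 24 h of LPS.

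The genes differed in how widely they were called. Lyz1, Lyz2 and Lrrc27 were called in the same direction in all 7 conditions, and Ltf, Ghitm and Cd5l in 6. Itgax, Chil3 and Lcn2 were called in 4, S100a9, Ngp and Cd81 in 3, and Itgb3 and Lima1 in 2. Itgb3 kept a log2 fold change of 0.72 to 1.12 in the other 6 conditions. The granule list as a whole had medians between 0.46, after 24 h of LPS, and 1.55, at Control 2 h, where 6 of its 10 tested members were called higher. That count was 2 at Control 0 h, 5 after 2 h and 0 after 24 h of palmitate, and 4 after 2 h and 1 after 24 h of LPS.

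After 24 h of LPS the exceptions were Cd5l and Lcn2. Cd5l was at 279 ± 41.4 CPM in WT and 281 ± 28.1 CPM in KO (SD, n = 3 each), so the genotypes met at a level below that of either group at Control 24 h. Lcn2, which LPS is known to induce, reached 347 ± 64.0 CPM in WT and 310 ± 31.1 CPM in KO (SD, n = 3 each). KO against WT was then -0.16 on the log2 scale.

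**Figure D5:**
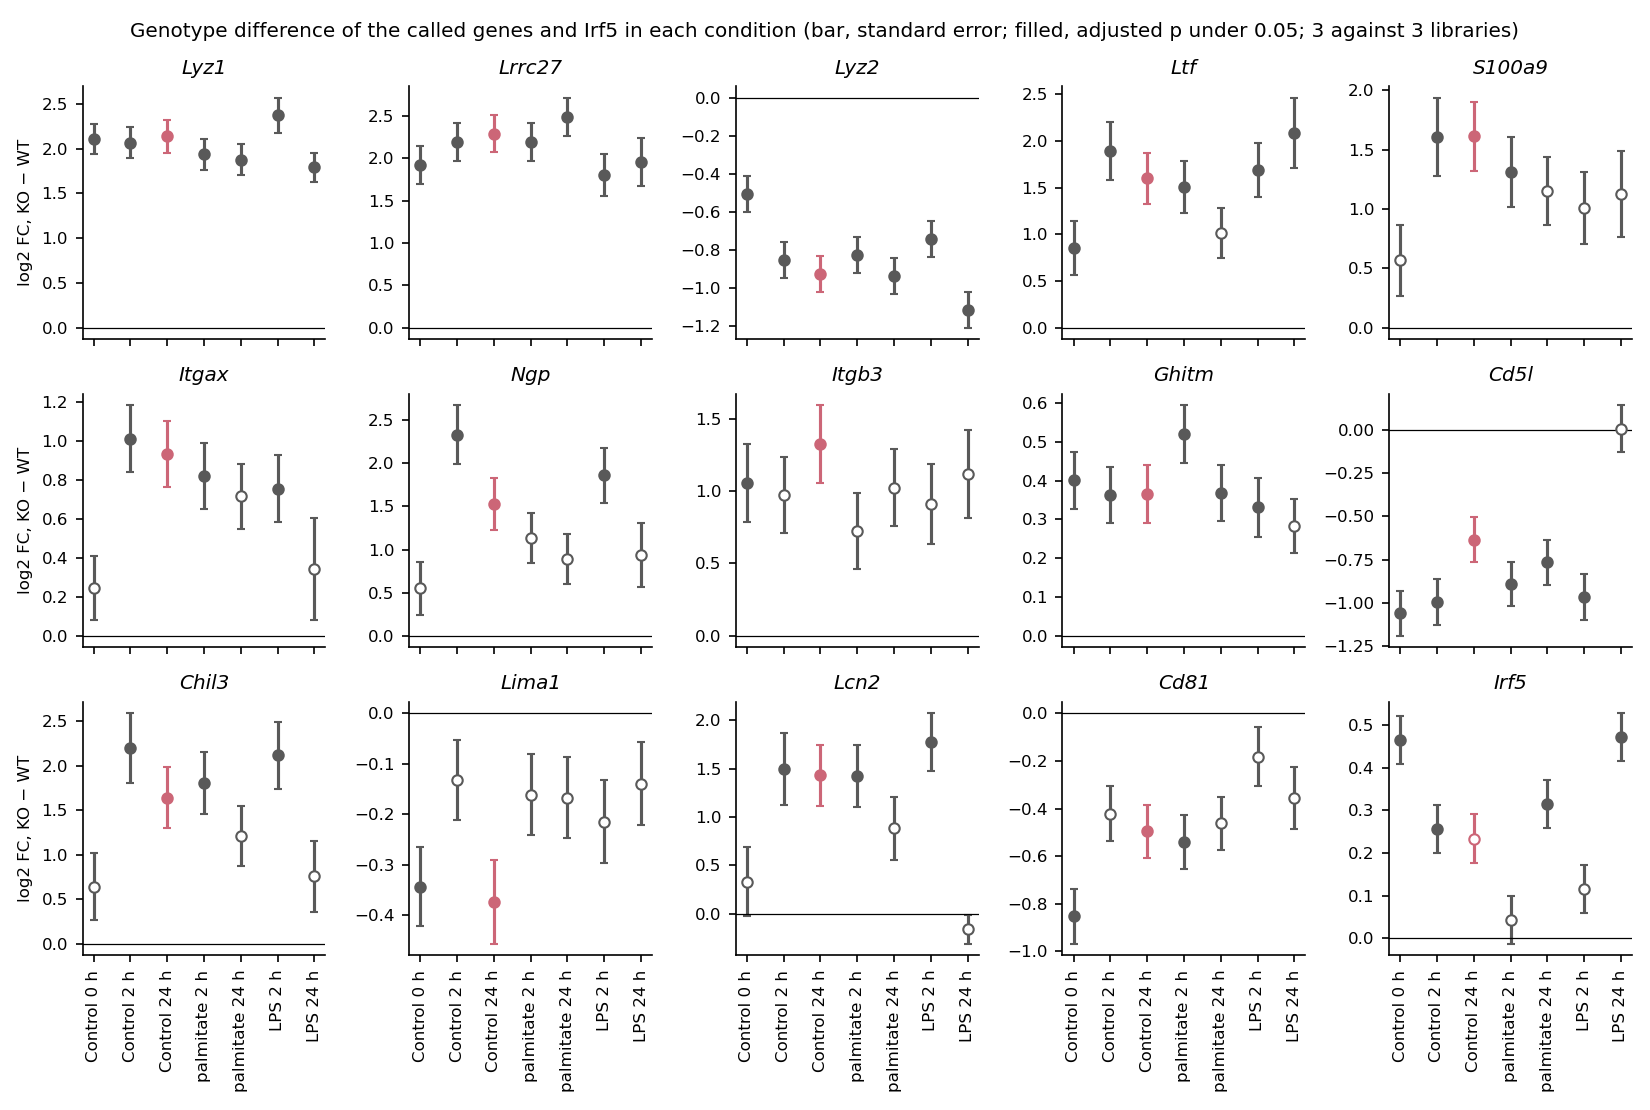
Log2 fold change of KO against WT (y axis) of the 14 called genes and Irf5 in each of the 7 conditions (x axis), with bars for the standard error and filled points where called. Lyz1, Lyz2 and Lrrc27 are filled in all 7 conditions, and Cd5l (0.01) and Lcn2 (-0.16) cross 0 after 24 h of LPS.

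The difference between conditions was itself tested for the 4 conditions nearest to Control 24 h in time or treatment. Against Control 0 h the genotype difference changed for 213 genes (1.83%), of which none was among the 14. Of the 14, 7 had an unadjusted p under 0.05 in that test, among them Itgax (log2 fold change 0.93 at 24 h and 0.24 at 0 h) and Cd5l (-0.64 and -1.06), where 13.9% of all genes did. Against Control 2 h (0.0%) and palmitate 24 h (0.0%) edgeR and DESeq2 called no gene, with 533 and 411 genes at an unadjusted p under 0.05. Against LPS 24 h edgeR called 1 gene (0.0086%), Fcgr3, which is not among the 14, and 3 of the 14 had an unadjusted p under 0.05, Cd5l, Lima1 and Lcn2, where 5.40% of all genes did. So no test of the difference marked any of the 14 genes as particular to Control 24 h.

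The regions around the deleted gene and around the Cre were also examined. Of 129 genes in the table within 5 Mb of Irf5, 36 were tested, none was called by edgeR or DESeq2 and 3 had an unadjusted p under 0.05, 2210408F21Rik (0.68), Mkln1 (-0.18) and Akr1b8 (-0.50). The edgeR fit of the 6 libraries alone and that without the filter each called 1, Akr1b8, lower. The median of the 36 was 0.00. Of 85 genes within 5 Mb of Lyz2, 34 were tested and the only call was Lyz1 (chr10:117287797-117292868, minus strand), next to Lyz2 (chr10:117277331-117282321, minus strand). Rab3ip, a regulator of vesicle transport, had a log2 fold change of -0.57 with overlapping groups (unadjusted p = 0.0373), and the median of the 34 was -0.04.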

How the data were processed

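Total RNA of the BMDM was made into stranded, ribosomal RNA-depleted paired-end libraries. The authors deposited raw counts per Ensembl gene for 42 libraries in 14 groups of 3, and all 42 columns of counts were used. The submitters' processing notes name fastp 0.19.11, STAR 2.7.3a and the builds mm10 and mm9. The counting tool and its strand setting are not given in the sources used here, so antisense, overlapping and near-identical genes are uncertain. Symbols and coordinates came from the GENCODE M21 annotation (mm10), with symbols for 32620 of 37310 IDs, and 12146 genes had no count in any library.

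Counts were filtered by filterByExpr, which left 11624 genes with 99.9% of the counts, scaled by TMM and tested with edgeR 4.0.16 (quasi-likelihood F test, R 4.3.3) in a fit over all 42 libraries with 1 mean per group. A gene that is low in WT can pass that filter through its KO libraries alone. Medians and signs in lists of low genes are therefore only descriptive. The p-values were adjusted over all tested genes (Benjamini-Hochberg). DESeq2 1.42.0, the study's tool, another scaling (RLE), no filter, the 6 libraries alone, the study's threshold and the omission of each library in turn were alternatives. SDs are over the CPM of 3 libraries. The depth of each library sets the precision: 3 counts correspond to 0.449 to 0.877 CPM in these 6 libraries, and over tested genes the median SE was 0.16 on the log2 scale (0.09 for the 4800 genes of 30 CPM or more). Intervals cover 95%. The lysozyme sum was tested by an exact two-sided permutation test.

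The text names all called genes, the 10 genes next by p, Irf5, Lyz1, Lyz2, Nnt, the 6 genes the study singled out and up to 4 tested members of each list by smallest unadjusted p. Names outside this rule (Tnpo3, Stk32c, Csf1r, Mertk, Spi1, Xcr1, Dcn, Lum, Elane, Ly6g, S100a8, Mmp8, Mpo, Cd177, Padi4, Vwf and Mmrn1) were added afterwards. The comparison, lists and named genes were chosen with earlier results of these data known. The platelet list and the genes near Lrrc27 were added after these values had been seen.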

Additional observations from a re-analysis of the deposited data

Results flagged for a closer look

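The genotype difference itself differed between Control 24 h and another condition for 4 genes named in the lists, by the edgeR test of that difference. Pf4, platelet factor 4, had a KO against WT log2 fold change of 0.63 at Control 24 h and of -0.54 at Control 0 h, where it was called lower (adjusted p = 0.0149). The difference between the 2 was 1.17 (SE 0.22, adjusted p = 0.00162). At Control 0 h Pf4 stood at 53.7 ± 5.37 CPM in WT and 36.8 ± 8.58 CPM in KO (SD, n = 3 each), without overlap, so the order of the genotypes was the opposite of that at Control 24 h. Marco, a scavenger receptor, was at 611 ± 36.6 CPM in WT and 551 ± 63.6 CPM in KO at Control 24 h and at 440 ± 55.8 and 220 ± 39.1 CPM at Control 0 h (SD, n = 3 each), a difference of 0.85 (adjusted p = 0.000262). Cd68, a lysosomal membrane protein of macrophages, had a log2 fold change of -0.07 at Control 24 h and -0.47 at Control 0 h, a difference of 0.40 (adjusted p = 0.0167).

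Fcgr3, a low-affinity IgG receptor, had a log2 fold change of 0.09 at Control 24 h, of -0.36 at Control 0 h and of -0.48 after 24 h of LPS. The difference was 0.46 against Control 0 h (adjusted p = 0.00954) and 0.57 against LPS 24 h (adjusted p = 0.0334). After 24 h of LPS it stood at 131 ± 9.25 CPM in WT and 94.3 ± 7.86 CPM in KO (SD, n = 3 each), without overlap, while at Control 24 h, with 238 ± 15.0 and 255 ± 3.16 CPM, the groups overlapped. Control 0 h was the condition with 1448 called genes, and what sets it apart was not tested.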

How the results depend on the processing

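Of the 14 genes called at Control 24 h (10 higher, 4 lower), DESeq2 and RLE scaling each called 15, sharing 13 and 14 with them. Without the filter 55 were called (45 higher, 10 lower) and with the 6 libraries alone 52 (40 higher, 12 lower), all 14 among them in both. Under the study's threshold, an unadjusted p under 0.05 and a log2 fold change over 1 in size, there were 138 genes with edgeR (108 higher, 30 lower) and 132 with DESeq2 (102 higher, 30 lower), 8 of the 14 among them each time and none of the 4 lower genes, whose changes are smaller than that limit. Omitting 1 library gave 7 to 11 called genes, 4 to 10 higher and 1 to 3 lower. Of the 14, 9 were still called without KO library 1, 7 without KO library 2, 11 without KO library 3, 7 without WT library 1, 6 without WT library 2 and 9 without WT library 3. Genes with a different genotype effect from Control 0 h numbered 213, 367 without the filter and 92 to 243 with a library left out (111 without KO library 1, 92 without KO library 2, 116 without WT library 2 and 120 without WT library 3). From Control 2 h they numbered 0, and 11 without the filter. From palmitate 24 h they numbered 0, and 9 without the filter. From LPS 24 h there was 1, with 2 by DESeq2, 26 without the filter and 0 to 1 with a library left out (0 without KO library 1 or 2 or WT library 1 or 2). Apart from the thresholds themselves, the cause of these shifts was not tested. Syce2, not called, turned from 0.11 to -0.079 on the log2 scale without KO library 2 and ranged up to 0.20 without KO library 1. No other gene with a fold change printed here changed sign. Some list members not printed here did when a library was left out, such as Irf3 (-0.073 to 0.297) and Mx2 (-0.214 to 1.63). The lysozyme sum kept a log2 difference of -0.95 to -0.88 in all settings. No paired analysis was possible because the columns of the count table carry no replicate numbers. Genes near the floor of 3 counts, such as Flt3 and Cd163, are limited by depth.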
